A study of Saccharomyces cerevisiae with 8 samples.

Results

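The histone genes of Saccharomyces cerevisiae were followed through exposure to TFM on arrays of 5449 genes. The set was drawn up by name as the core histone genes HTA1 and HTA2 (H2A), HTB1 and HTB2 (H2B), HHT1 and HHT2 (H3), HHF1 and HHF2 (H4), the linker histone gene HHO1 and the H2A variant gene HTZ1. Of these 10 genes, 9 had a probe set annotated with their symbol, and HHF2 had none of its own and was left out. HTA2 had 2 probe sets, so 10 probe sets were described. The samples were BY4741, a haploid laboratory strain of mating type a that carries deletions of URA3, LEU2 and MET17 and a disrupted HIS3, grown to saturation in glucose-rich YPD medium at 30 °C. Every group received isopropanol, the solvent, at 2%. The groups were a time zero control sampled just before treatment (2 RNA samples), and cultures given 0.05 mM TFM for 1 h (2 samples), 2 h (2 samples) or 4 h (1 sample on 2 technical arrays, which were averaged and counted as n = 1). The labels give TFM only by its abbreviation, and there was no solvent control at 1, 2 or 4 h, so exposure and time after sampling the control cannot be told apart in any comparison with control. The labels call the replicates biological without naming separate cultures, and p-values then measure only the spread between these samples.

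Nucleosomes wrap DNA around an octamer of H2A, H2B, H3 and H4. In budding yeast each core histone has a pair of gene copies, arranged as divergent pairs that share a promoter, and their transcription peaks in S phase, when new chromatin is assembled. The Hir proteins and Asf1 repress most of these pairs outside S phase, Spt10 and Spt21 activate them, and excess free histones are harmful to the cell. HHO1 encodes the H1-like linker histone, and HTZ1 encodes H2A.Z, which the SWR1 complex places at promoters throughout the cycle. Saturated cultures are mostly in a non-dividing state, in which histone gene transcription is low compared with cycling cells. In bulk RNA, fewer cells transcribing a gene and less RNA per cell cannot be told apart.

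HHO1 was the histone gene that passed the test against control: it fell by 0.54 on the log2 scale (SE 0.10, adjusted p = 0.0439) in the single 4 h sample, a fall of 31.4%. Of the 7 measured core histone genes, 0 passed at 1 h, 2 h or 4 h, with changes from 0.07 to 0.29 at 1 h and from 0.02 to 0.33 at 2 h. The 1 h and 2 h samples lay above both controls for 6 of the 7, and HHT2 overlapped control. Of all genes, 23.5% lay above both controls at 1 h and 21.1% at 2 h, and the share at both times was not computed. HTZ1 did not pass at any time. A log2 change here is limma's group difference with its standard error (SE), from a fit of all 7 RNA samples, and a gene passed when its Benjamini-Hochberg adjusted p over all 5449 genes was under 0.05. Against control, 0 of 9 histone genes passed as higher at 1 h, where 3.47% of all genes did, and 0 of 9 as lower, where 1.52% did. At 2 h 0 of 9 passed in either direction, against 0.0184% higher and 0.0918% lower over all genes. At 4 h 1 of 9 passed as lower, against 3.73% of all genes, and 0 as higher, against 0.734%. At an unadjusted p under 0.05, 4 of 9 were higher at 1 h and 4 of 9 after 2 h, beside 13.2% and 4.11% of all genes, and 2 of 9 were lower at 4 h, beside 12.8%. In the other directions at that p, 0 of 9 were lower at 1 h, beside 14.4% of all genes, 0 of 9 lower at 2 h, beside 8.2%, and 0 of 9 higher at 4 h, beside 6.97%. The F test over the time points passed 1 histone gene, HHO1 (adjusted p = 0.0356), and 6.51% of all genes, and it passed 0 histone genes without 1 h replicate 2 or either 2 h replicate.

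Other array measures also differed between times. Over 17 probe sets for ribosomal RNA, the array median was 9.76 and 9.97 in control, 10.47 and 11.77 after 1 h, 11.43 and 13.03 after 2 h and 12.18 and 12.08 on the pair of 4 h arrays, all as log2 values. Control replicate 1 had the widest gap between 3' and 5' control probe sets, 1.55 against 1.25 to 1.36 on the other arrays. In it 8 of the 9 histone genes read lower than in control replicate 2, and the share of all genes that did was not computed. The part of these measures in the histone values was not tested. The genes that BY4741 lacks, URA3, LEU2 and MET17, lay at percentiles 0.499, 1.26 and 0.86 of all probe sets, and HIS3, which the strain carries in a disrupted form, lay at percentile 74.8. Of the mating type a genes, STE2, MFA1 and MFA2 lay at percentiles 72.9 to 87.7 and BAR1, STE6 and AGA2 at 34.4 to 48.1. Of the mating type alpha genes, STE3 lay at percentile 13.2 and SAG1 at 63.2.

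**Figure D1:**
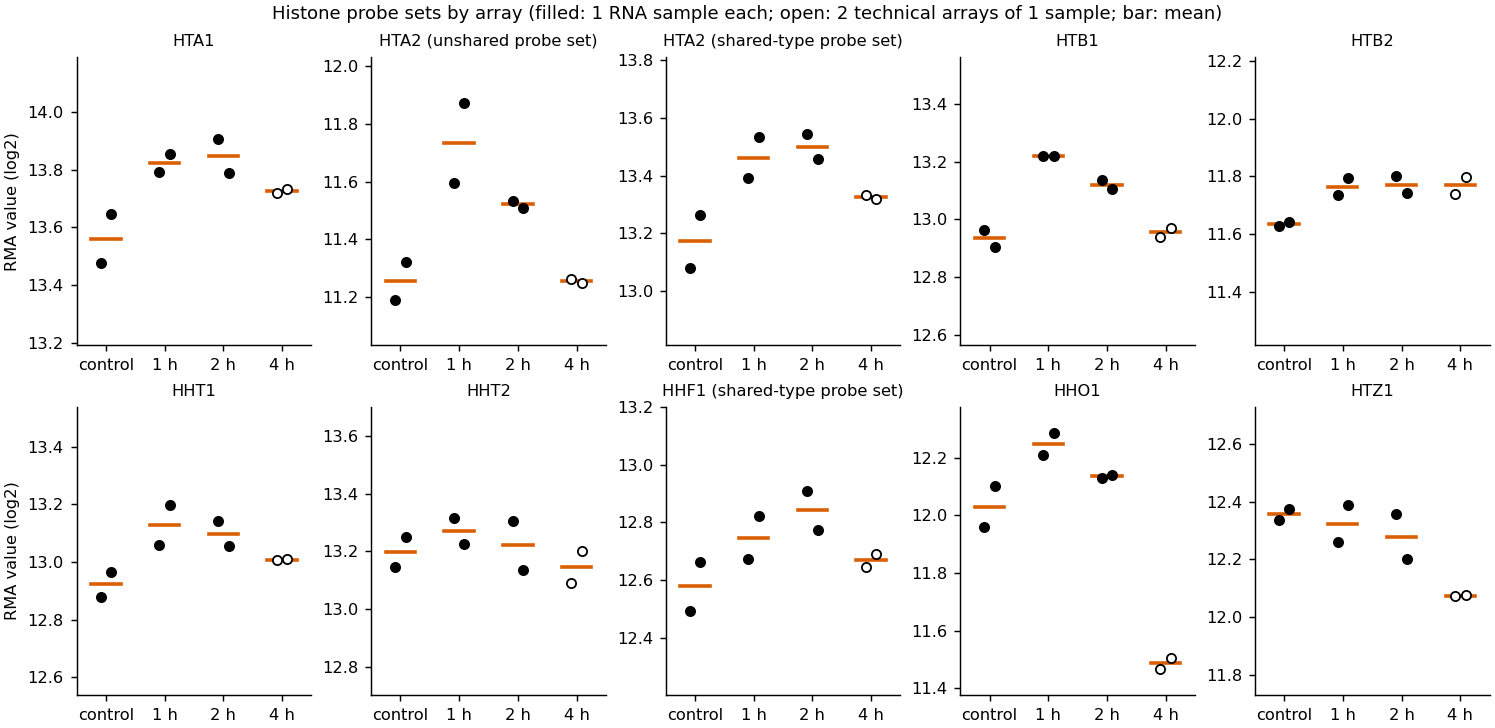
RMA values (log2) of the 10 histone probe sets on each array, with control, 1 h, 2 h and 4 h along the horizontal axis; filled points are RNA samples, open points the 2 technical arrays of the 4 h sample, and bars are means. Every panel spans the same height on the log2 scale. HHO1 at 4 h, 11.47 and 11.51, lies below all its other values, and HTA1 after 1 h and 2 h lies above both controls.

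The H2A genes HTA1 and HTA2 had the highest changes of the core histones at 2 h. HTA1 read 13.47 and 13.65 in control, 13.79 and 13.86 after 1 h, 13.91 and 13.79 after 2 h, and 13.72 and 13.73 on the arrays of the 4 h sample. All treated samples thus lay above both controls, and the 1 h and 2 h samples overlapped. The change was 0.26 after 1 h (SE 0.09, adjusted p = 0.136), 0.29 after 2 h (SE 0.09, adjusted p = 0.308) and 0.17 at 4 h (SE 0.11, adjusted p = 0.459). Its 95% interval at 2 h ran from 0.06 to 0.51 before adjustment for the number of genes. At 2 h 3.7% of all genes had a larger change than HTA1, and at 1 h 13.5%.

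The HTA2 probe sets gave different time courses. One has a name ending in _s_at, the array maker's mark for probes shared by similar transcripts, and may read HTA1 RNA as well. It was the brighter of the pair and so entered the fit. This shared-type probe set read 13.08 and 13.26 in control, 13.39 and 13.53 after 1 h, 13.54 and 13.46 after 2 h, and 13.33 and 13.32 on the pair of 4 h arrays, with changes of 0.29 (SE 0.10, adjusted p = 0.129), 0.33 (SE 0.10, adjusted p = 0.282) and 0.15 (SE 0.12, adjusted p = 0.524). The unshared HTA2 probe set read 11.19 and 11.32 in control, 11.60 and 11.87 after 1 h, 11.54 and 11.51 after 2 h, and 11.26 and 11.25 on the pair of 4 h arrays. It was thus highest at 1 h, lower at 2 h without overlap and back within the control range at 4 h. In a fit that took unshared probe sets first, chosen after the data were seen, its change was 0.48 after 1 h (SE 0.11, adjusted p = 0.0586), 0.26 after 2 h (SE 0.11, adjusted p = 0.415) and 0.00 at 4 h (SE 0.14). The HTA2 change at 1 h on the unshared probe set, 0.48, was the highest of any histone probe set in the comparisons with control, and its 95% interval ran from 0.21 to 0.75. Over the 7 RNA samples the shared-type probe set correlated with HTA1 at r = 0.99 and with the unshared HTA2 probe set at r = 0.82, while the unshared one correlated with HTA1 at r = 0.77. These correlations describe samples that share controls and treatment groups, and no test was made of them. Which of the H2A genes the shared-type probe set follows cannot be told from these values.

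The H2B genes HTB1 and HTB2 differed in shape. HTB1 read 12.96 and 12.90 in control, 13.22 and 13.22 after 1 h, 13.13 and 13.11 after 2 h, and 12.94 and 12.97 on the pair of 4 h arrays. Each of the 1 h and 2 h samples lay above the controls, the 1 h samples lay above the 2 h samples, and the mean of the 4 h arrays lay between the controls. HTB1 had the lowest adjusted p of the histone genes at 1 h in the fit of all samples, 0.0682, with a change of 0.29 (SE 0.07), and it passed under a trended prior (adjusted p = 0.0335), after median centring (0.34, adjusted p = 0.048) and when the 4 h arrays were entered as separate samples (adjusted p = 0.0239). Its changes at 2 h and 4 h were 0.19 (SE 0.07, adjusted p = 0.375) and 0.02 (SE 0.09, adjusted p = 0.92), and over alternatives its adjusted p at 1 h ran from 0.0239 to 0.215. HTB2 read 11.63 and 11.64 in control, 11.73 and 11.79 after 1 h, 11.80 and 11.74 after 2 h, and 11.74 and 11.80 on the pair of 4 h arrays. It lay above control in all treated samples, by 0.13, 0.14 and 0.13 after 1 h, 2 h and 4 h (SE 0.07, 0.07 and 0.09), and none of these changes passed, with adjusted p of 0.301, 0.532 and 0.453.

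For H3, HHT1 read 12.88 and 12.97 in control, 13.06 and 13.20 after 1 h, 13.14 and 13.05 after 2 h, and 13.01 and 13.01 on the pair of 4 h arrays. The treated samples lay above both controls, by 0.21 after 1 h (SE 0.09, adjusted p = 0.189), 0.18 after 2 h (SE 0.09, adjusted p = 0.493) and 0.09 at 4 h (SE 0.11, adjusted p = 0.705). HHT2, the other H3 copy, read 13.15 and 13.25 in control, 13.32 and 13.22 after 1 h, 13.30 and 13.14 after 2 h, and 13.09 and 13.20 on the pair of 4 h arrays. HHT2 overlapped control at 1 h and 2 h, with changes of 0.07 (SE 0.09), 0.02 (SE 0.09) and -0.05 (SE 0.11) at the 3 times, and 95% intervals from -0.15 to 0.30 at 1 h and from -0.20 to 0.25 at 2 h. Its sign was not stable: the change at 2 h was -0.03 without control replicate 1 and -0.06 without 2 h replicate 1, and that at 4 h was 0.01 without the first technical array.

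H4 was represented by a shared-type probe set that the annotation assigns to HHF1 and that may also read its near-identical copy HHF2. It read 12.49 and 12.66 in control, 12.67 and 12.82 after 1 h, 12.91 and 12.77 after 2 h, and 12.65 and 12.69 on the pair of 4 h arrays. The 1 h and 2 h samples lay above control, although the lower 1 h sample and the higher control differed by little, and the 1 h and 2 h samples overlapped. The HHF1 change was 0.17 after 1 h (SE 0.10, adjusted p = 0.326), 0.26 after 2 h (SE 0.10, adjusted p = 0.375) and 0.09 at 4 h (SE 0.12, adjusted p = 0.737).

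**Figure D2:**
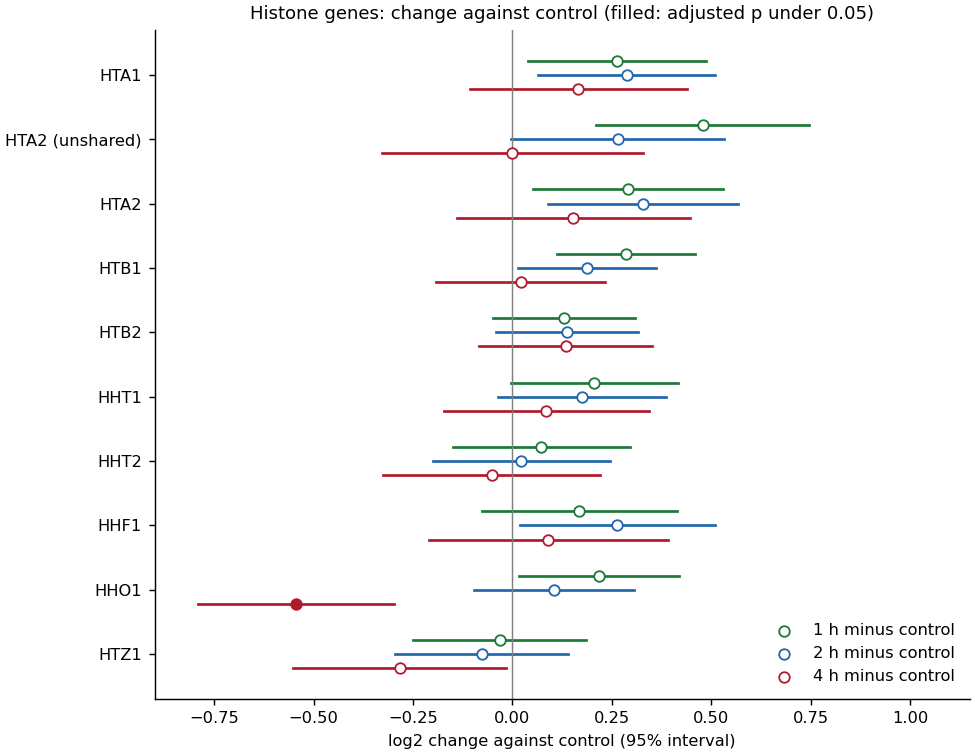
Log2 change against control of each histone probe set at 1 h, 2 h and 4 h, as limma's estimate (points) with its 95% interval (lines); filled points have an adjusted p under 0.05, and HTA2 without further mark is the shared-type probe set. HHO1 at 4 h, -0.54, is the filled point, and the unshared HTA2 probe set at 1 h, 0.48, lies farthest to the right.

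HHO1, the linker histone gene, read 11.96 and 12.10 in control, 12.21 and 12.29 after 1 h, 12.13 and 12.14 after 2 h, and 11.47 and 11.51 on the pair of 4 h arrays. The 4 h arrays lay below every other array, and the 1 h and 2 h samples lay above both controls. HHO1 averaged 12.25 ± 0.06 after 1 h (SD, n = 2) and 12.03 ± 0.10 in control (SD, n = 2), a change of 0.22 (SE 0.08, adjusted p = 0.159), and at 2 h its change was 0.10 (SE 0.08, adjusted p = 0.668). At 4 h it stood at 11.49 (n = 1) and in control at 12.03, and 95.4% of all genes had a higher change. The 95% interval of the fall at 4 h ran from -0.79 to -0.30.

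The call on HHO1 at 4 h against control depended on the samples fitted and on scaling. No 2 h sample enters this change, so leaving out a 2 h replicate kept it at -0.54. Such a fit differed in its estimate of spread. Its adjusted p was 0.0815 without control replicate 1, 0.111 without control replicate 2 and 0.139 without either 2 h replicate, with changes of -0.62, -0.47, -0.54 and -0.54. It was 0.0634 after median centring, 0.0515 after quantile normalisation and 0.141 when only the 4 h and control samples were fitted. The direction held in the 18 alternatives run, with changes from -0.62 to -0.47, and 11 of them passed the threshold.

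HHO1 also differed between treated times. It was lower at 4 h than at 1 h by -0.76 (SE 0.10, adjusted p = 0.0135). In that comparison 8.53% of all genes passed as lower. HHO1 was tested there with an SE from the fit of all 7 RNA samples, so only its difference in means uses no control sample. It was the 1 histone gene of 9 to pass there, and it lost the call without either 2 h replicate (adjusted p = 0.0515 in each case). At 4 h against 2 h the HHO1 change was -0.65 (SE 0.10, adjusted p = 0.0594), where 0.771% of all genes passed as lower and 0 of 9 histone genes did (1 at an unadjusted p under 0.05, beside 8.68% of all genes). Over all genes, 0.0918% passed there as higher. At 2 h against 1 h 0 of 9 passed, in limma's fit and at an unadjusted p under 0.05, with changes from -0.11 to 0.10, while 2.51% of all genes passed as lower and 0.128% as higher, and 14% and 8.28% at the unadjusted p.

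HTZ1, which encodes H2A.Z, read 12.34 and 12.38 in control, 12.26 and 12.39 after 1 h, 12.36 and 12.20 after 2 h, and 12.07 and 12.07 on the pair of 4 h arrays. The 1 h and 2 h samples overlapped control, and the 4 h arrays lay below all others. HTZ1 had changes of -0.03 (SE 0.09, adjusted p = 0.85), -0.08 (SE 0.09, adjusted p = 0.796) and -0.28 (SE 0.11, adjusted p = 0.227), and at 4 h it passed under 1 of 18 alternatives, with the 4 h arrays as separate samples (adjusted p = 0.045). The sign of its 1 h change was not stable, since it was 0.03 without 1 h replicate 1 and 0.02 after median centring. HHO1 and HTZ1 correlated at r = 0.75 over the 7 samples, and each was the other's closest histone gene by that measure. Both genes had their lowest value in the single 4 h sample, and no r was computed without it.

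The 7 measured core genes had a mean of 12.81 and 12.90 in control, 13.03 and 13.09 after 1 h, 13.11 and 13.01 after 2 h, and 12.94 at 4 h, as log2 values. The 1 h and 2 h means lay above both controls and the 4 h mean lay slightly above them. The controls differed from each other by 0.10 in this mean. Over the 9 histone genes the median change was 0.21 after 1 h, beside -0.03 for all genes, 0.18 after 2 h, beside -0.02, and 0.09 at 4 h, beside 0.00. Of the 9, 8 had a positive change at 1 h, 8 after 2 h and 6 at 4 h, beside 44.1%, 43.8% and 49.4% of all genes. The groups did not overlap, with the treated samples higher, for 7 of 9 after 1 h and 7 of 9 after 2 h, where the same held for 23.5% and 21.1% of all genes. At 4 h, with 1 sample against 2 controls, 5 of 9 lay above and 3 of 9 below both controls, beside 38.4% and 40.3% of all genes. HHT2, counted among the 3 below, averaged 13.146 at 4 h, against 13.147 in control replicate 1. Its second 4 h array, 13.20, lay between the controls. HHF1, counted among the 5 above, averaged 12.669 at 4 h, against 12.663 in control replicate 2. The first HHF1 array at 4 h, 12.65, lay between the controls. The comparisons with control at 1 h, 2 h and 4 h share the control samples. At 4 h against 2 h all 9 changes were negative, with a median of -0.17 beside 0.03 for all genes, and 7 of 9 lay below both 2 h samples, beside 36.2% of all genes. Without 2 h replicate 1 the median was -0.11 with 2 of 9 positive, and 1 of 9 was positive after median centring or without the first technical array. At 4 h against 1 h 8 of 9 were negative and below both 1 h samples, beside 38.3% of all genes that lay below both. Without control replicate 1 the histone median was 0.15 after 1 h, 0.13 after 2 h and 0.04 at 4 h. It was 0.14 at 1 h without 1 h replicate 2, 0.13 at 4 h without control replicate 2, and 0.02 at 4 h, with 5 of 9 positive, where the unshared HTA2 probe set was used. Among the 1831 genes at least as bright as the dimmest histone gene, the median change was -0.02 after 1 h, 0.00 after 2 h and 0.01 at 4 h.

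**Figure D3:**
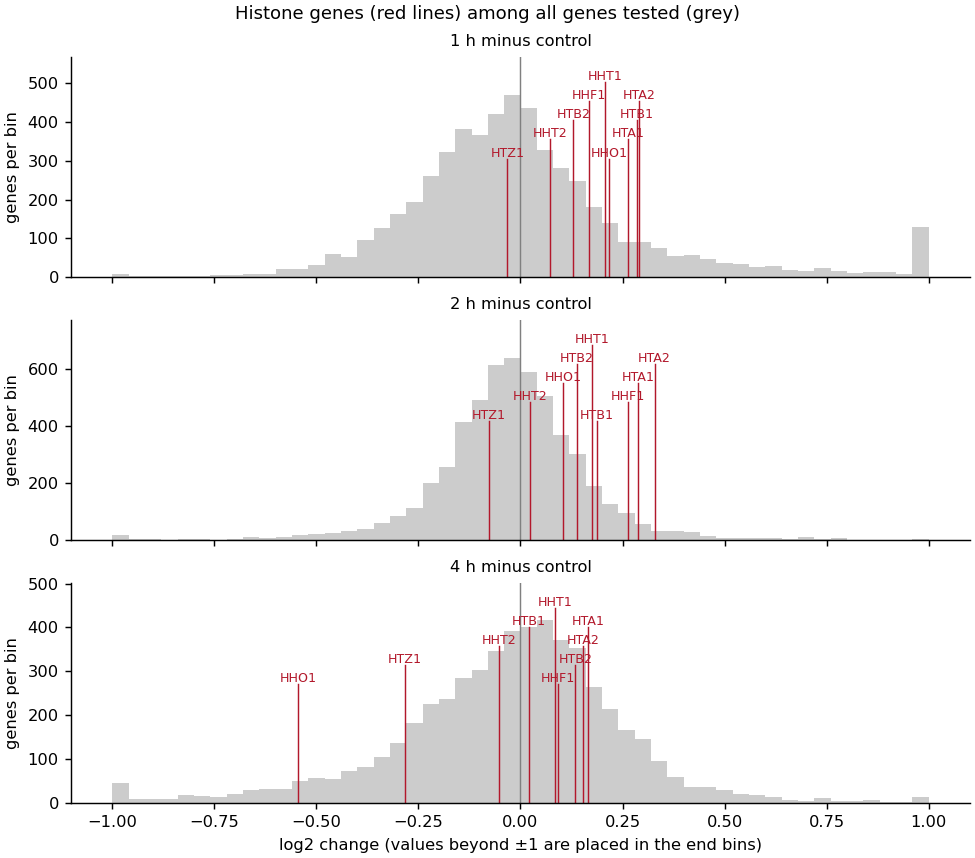
Distribution of the log2 change against control over all 5449 genes (grey bars, genes per bin) at 1 h, 2 h and 4 h, with the 9 histone genes as red lines. At 1 h and 2 h all histone genes but HTZ1 lie right of 0, and at 4 h HHO1 (-0.54) and HTZ1 (-0.28) lie apart on the left.

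The divergent gene pairs were read from the RefSeq table of assembly R64, in which HTA1 with HTB1, HTA2 with HTB2, HHT1 with HHF1 and HHT2 with HHF2 are neighbours on opposite strands. The levels over the 7 samples correlated at r = 0.74 for HTA1 with HTB1, r = 0.89 for HTA2 with HTB2 and r = 0.90 for HHT1 with HHF1. The value for HTA2 uses the shared-type probe set, and on the unshared probe set HTA2 and HTB2 correlated at r = 0.66. With HTA2 read on the shared-type probe set, the gene most like HTA1 was HTA2, that most like HTB1 was HHT1 (r = 0.80), and that most like HTB2 was HTA1 (r = 0.91). The unshared HTA2 probe set was closer to HTB1 than HHT1 was, at r = 0.89. Among the core genes HHT2 stood most apart, since its closest histone gene was HHO1 at r = 0.54. The genes outside the histones whose pattern was most like the mean core profile, among 1444 genes with an SD of at least 0.2, were RPI1 (r = 0.93), YRO2 (r = 0.93), NOC2 (r = 0.92), RPF2 (r = 0.90), DBP3 (r = 0.89), NOP15 (r = 0.88), RAD27 (r = 0.88) and RRS1 (r = 0.87). RPI1 had changes of 0.57 after 1 h (adjusted p = 0.0376), 0.40 after 2 h and 0.28 at 4 h. RPF2, DBP3 and NOP15 also passed at 1 h, with 0.70, 0.82 and 0.76 (adjusted p = 0.0251, 0.0361 and 0.0454). RAD27, the only gene of these in the lists described below, did not pass at 1 h (adjusted p = 0.0817). Its changes were 0.44, 0.45 and 0.20. With each sample left out in turn, r ranged from 0.73 to 0.98 over these 8 genes.

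Genes that regulate, carry, place, modify or turn over histones were described with CSE4, SCM3, HMO1 and 39 S phase genes. These made 9 lists of 126 genes, all of them measured. The totals include the S phase genes POL30 and CDC45 at 1 h and CDC21 and PRI1 at 4 h. Against control, 4 genes passed as higher and 1 as lower at 1 h (3.17% and 0.794%, beside 3.47% and 1.52% of all genes), 0 passed at 2 h (11 higher and 9 lower of 126 at an unadjusted p under 0.05, beside 4.11% and 8.2% of all genes), and 1 passed as higher and 4 as lower at 4 h (0.794% and 3.17%, beside 0.734% and 3.73% of all genes). Among 11 regulators of histone gene transcription, including SPT10, SPT21, the HIR genes, HPC2, SWI4, SWI6 and MBP1, 0 passed at any time; at an unadjusted p under 0.05 there were 1 lower at 1 h, 1 lower at 2 h, and 1 higher and 2 lower at 4 h. Of all genes at that p, the shares were 13.2% higher and 14.4% lower at 1 h, 4.11% and 8.2% at 2 h, and 6.97% and 12.8% at 4 h. The median changes of these regulators were -0.03, 0.02 and 0.08 at the 3 times. HIR2, a subunit of the Hir repressor complex, had the widest change at 4 h, -0.53 (SE 0.13, adjusted p = 0.089), and read 9.93 and 9.81 on the pair of 4 h arrays, against 10.46 and 10.35 in control. RSC8, a subunit of the RSC chromatin remodeller, had the widest change at 1 h, -0.29 (SE 0.11, adjusted p = 0.142), and at 2 h, -0.27 (SE 0.11, adjusted p = 0.382).

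Of 16 chaperone and nucleosome assembly genes, RLF2 rose at 1 h and NHP6A fell at 4 h. RLF2 encodes the large subunit of CAF-1, which deposits H3 and H4 on newly copied DNA. It read 10.75 and 10.29 after 1 h, against 9.22 and 9.45 in control, a change of 1.19 (SE 0.16, adjusted p = 0.0262), and at 2 h and 4 h its changes were 0.33 and 0.31, which did not pass. Its mean over samples, 9.81, lay under 10.02, the 25th percentile of all probe sets, and it lost the call without control replicate 1 (adjusted p = 0.109) and without either 2 h replicate or with only the groups compared (adjusted p = 0.0677 in each case). NHP6A, an HMG-box protein that works with the FACT chaperone, read 11.05 and 11.06 on the pair of 4 h arrays, against 11.57 and 11.59 in control, a change of -0.52 (SE 0.09, adjusted p = 0.0348). The median changes of the chaperone list were -0.05, -0.04 and 0.01 after 1 h, 2 h and 4 h.

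Of 11 genes of H2A.Z deposition 0 passed against control in limma. At an unadjusted p under 0.05, 1 was higher and 2 lower at 1 h, beside 13.2% and 14.4% of all genes. At 2 h 1 was higher, beside 4.11%, and at 4 h 2 were higher and 1 lower, beside 6.97% and 12.8%. The widest change was that of SWC7, a subunit of the SWR1 complex, at 0.57, 0.52 and 0.84 after 1 h, 2 h and 4 h (adjusted p = 0.108, 0.334 and 0.102), and SWC7 was dim, with a mean of 7.29. Of 11 histone acetylation genes 0 passed against control (1 higher and 3 lower at 1 h, 1 lower at 2 h and 1 lower at 4 h at an unadjusted p under 0.05, where 14.4%, 8.2% and 12.8% of all genes were lower and 13.2% higher at 1 h). HAT1, which acetylates new H4, had changes of -0.52, -0.76 and -0.86 (adjusted p = 0.0999, 0.168 and 0.0694), with 9.57 and 9.15 in control, 8.69 and 8.97 after 1 h, 8.57 and 8.63 after 2 h, and 8.54 and 8.47 on the pair of 4 h arrays. HAT1 lay below both controls in all treated samples, and the control values differed by more than those of any treated group.

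Of 14 deacetylase genes HST3 fell at 1 h, by 0.52 on the log2 scale (SE 0.09, adjusted p = 0.0415). HST3, which removes the acetyl group of H3 after DNA replication, read 9.78 and 9.64 after 1 h, against 10.31 and 10.14 in control. HST4, which acts with HST3, had -0.69 after 2 h (SE 0.17, adjusted p = 0.209) and -0.81 at 4 h (SE 0.20, adjusted p = 0.0916). Of 11 methylation and ubiquitination genes SET2, the H3 lysine methyltransferase bound to elongating polymerase, rose at 1 h by 0.51 (SE 0.10, adjusted p = 0.0461), and LGE1, a partner of the H2B ubiquitin ligase Bre1, rose at 4 h by 0.47 (SE 0.09, adjusted p = 0.0417). The demethylase gene RPH1 had 0.25 after 2 h (SE 0.08, adjusted p = 0.319). HST3 lost its call without control replicate 1 (adjusted p = 0.168), 1 h replicate 2 (0.0942) or either 2 h replicate (0.102), and with array weights (0.0877) or only the groups compared (0.102). SET2 lost its call without control replicate 1 (adjusted p = 0.178), 1 h replicate 1 (0.0543), 1 h replicate 2 (0.0895) or either 2 h replicate (0.117), and with array weights (0.0967) or only the groups compared (0.117). HST3, HST4 and SET2 were dim, with means over samples under 10.02.

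Of 10 genes of histone mRNA and protein turnover UBC5, a ubiquitin-conjugating enzyme linked to histone degradation, fell at 4 h. It read 11.30 and 11.44 on the pair of 4 h arrays, against 12.27 and 12.26 in control, a change of -0.89 (SE 0.11, adjusted p = 0.0166). PAP2, a poly(A) polymerase of nuclear RNA surveillance, had 0.59 after 1 h (SE 0.14, adjusted p = 0.0608), and RRP6, a nuclear exosome nuclease, had 0.33 after 2 h (SE 0.09, adjusted p = 0.212). The calls on UBC5, NHP6A, LGE1, CDC21 and PRI1 at 4 h were each lost without either control and without either 2 h replicate, with adjusted p from 0.0524 to 0.151, and with only the groups compared. PAP2 and SCM3 were dim. The gene of the centromeric H3 variant, CSE4, did not pass at any time, with 0.32 after 1 h, 0.10 after 2 h and 0.18 at 4 h. SCM3, which delivers that variant, had 0.40 at 1 h (SE 0.09, adjusted p = 0.0564). Of the group of 3 with HMO1, 0 passed. At an unadjusted p under 0.05, 2 of the 3 were higher at 1 h, beside 13.2% of all genes.

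**Figure D4:**
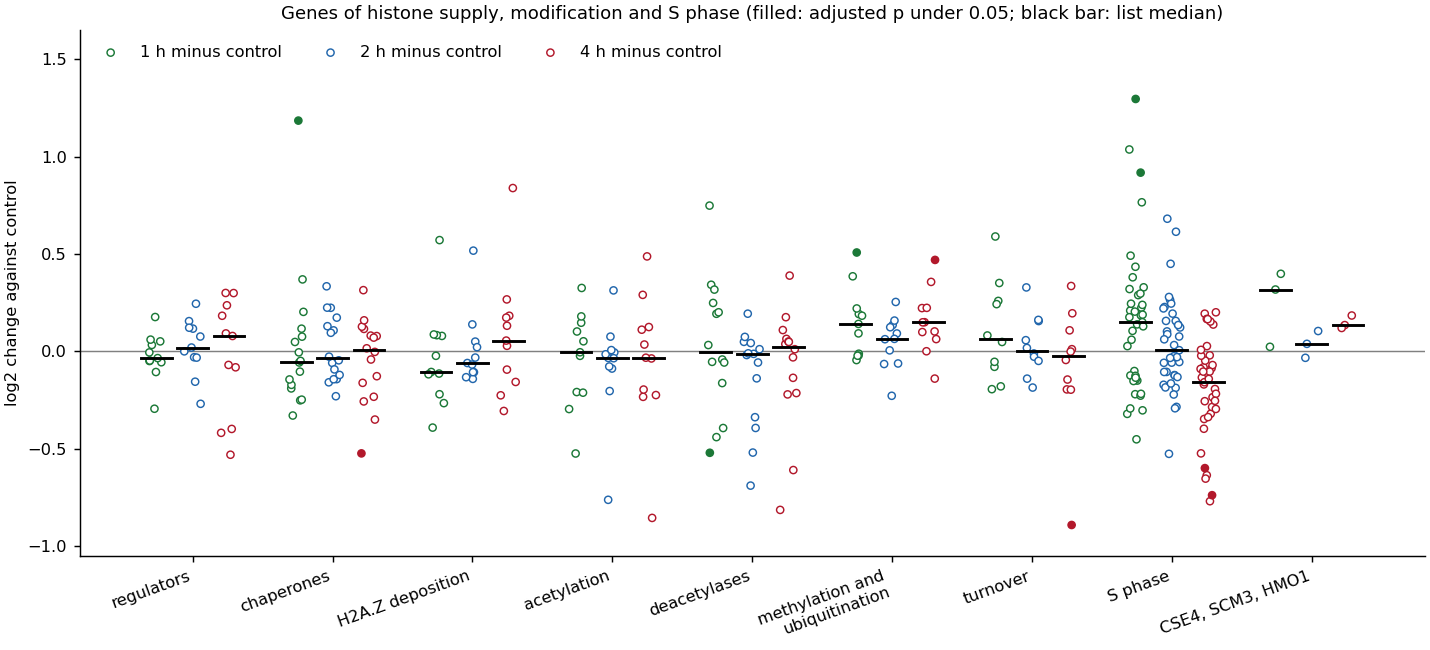
Log2 change against control at 1 h, 2 h and 4 h of each gene in the 9 lists; points are genes, filled where the adjusted p is under 0.05, and black bars are list medians. The median of the S phase list is 0.15 after 1 h, 0.01 after 2 h and -0.16 at 4 h.

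Of 39 S phase genes, POL30 and CDC45 rose at 1 h, 0 passed at 2 h, and CDC21 and PRI1 fell at 4 h. Over all genes 3.47% passed as higher at 1 h, 0.0184% as higher and 0.0918% as lower at 2 h, and 3.73% as lower at 4 h. At an unadjusted p under 0.05, 13 were higher and 3 lower at 1 h, beside 13.2% and 14.4% of all genes. At 2 h 7 were higher and 4 lower at that p, beside 4.11% and 8.2%. At 4 h 0 were higher and 9 lower, beside 6.97% and 12.8%. POL30, the sliding clamp that tethers DNA polymerase, read 11.43 and 11.63 after 1 h, against 10.11 and 10.35 in control, a change of 1.30 (SE 0.12, adjusted p = 0.0168), and at 2 h and 4 h its changes were 0.61 and -0.64, which did not pass. CDC45, part of the replicative helicase, had 9.56 and 9.44 after 1 h, against 8.50 and 8.67 in control, a change of 0.92 (SE 0.10, adjusted p = 0.0168). Each lost its call without control replicate 1 (adjusted p = 0.0689 in each case). RNR1, the large subunit of ribonucleotide reductase, had the widest change of the list at 2 h, 0.68 (SE 0.17, adjusted p = 0.209). CDC21, thymidylate synthase, had -0.74 at 4 h (SE 0.12, adjusted p = 0.0304), and PRI1, a subunit of DNA primase, had -0.60 (SE 0.12, adjusted p = 0.0483), which did not pass after median centring (adjusted p = 0.0524), after quantile normalisation (0.0784) or with a trended prior (0.0619). CDC45, RNR1, CDC21 and PRI1 were dim, with means over samples under 10.02. At 4 h against 1 h 9 of the 39 were lower and 0 higher, beside 8.53% (465 genes) and 3.19% of all genes. Over genes above the 25th percentile 5 S phase genes were lower, beside 364 of 4129 genes. The count was 5 with only the groups compared, beside 241 of all genes, and 17 with separate 4 h arrays, beside 1116. Leaving out either 2 h replicate lowered both the S phase count and that of all genes. In the same comparison POL30 had -1.93, and the measured core histone genes ran from -0.26 (HTB1, adjusted p = 0.0949) to 0.00 (HTB2), with -0.08 for HHF1, -0.10 for HTA1, -0.14 for HTA2 on the shared-type probe set and -0.48 on its unshared probe set (adjusted p = 0.0679). None of these histone changes passed.

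**Figure D5:**
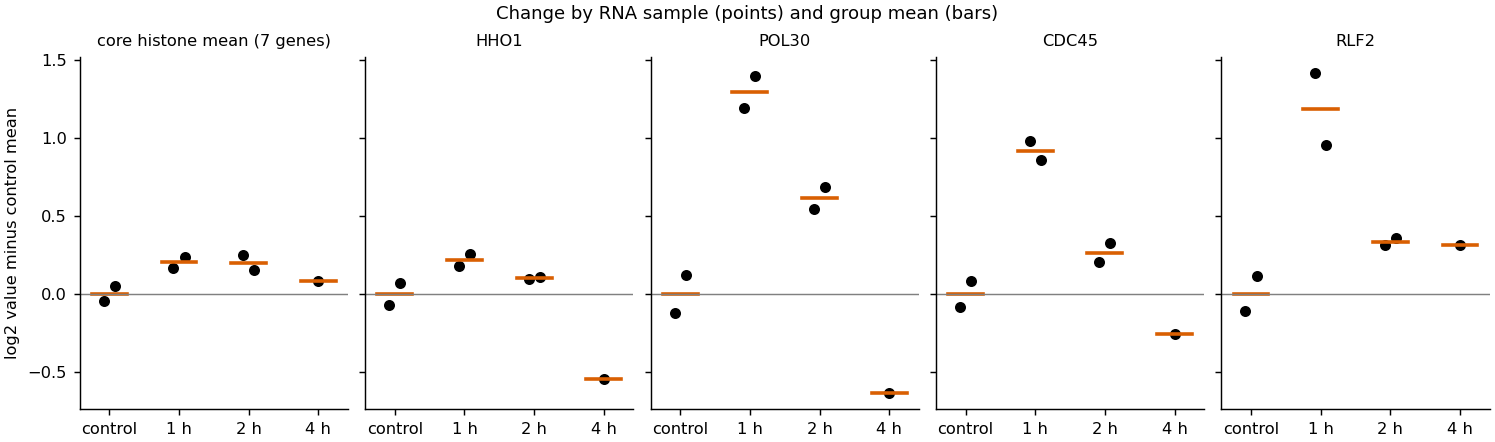
Log2 value minus the control mean for the mean of the 7 core histone genes, HHO1, POL30, CDC45 and RLF2; points are RNA samples and bars are group means, with time along the horizontal axis. All panels share a scale, on which the core histone mean spans far less than POL30, and POL30, CDC45 and RLF2 are highest at 1 h.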

How the data were processed

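Total RNA was isolated with RNeasy kits and biotin-labelled cRNA was hybridised to 1-colour arrays whose probe set names have the Affymetrix form, per the labels' protocols and the annotation. The deposited values are log2 expression values per probe set made by the authors with RMA, per the submitters' processing notes (no version named). The log base was judged from the range. RMA scales arrays towards a shared distribution, so these values cannot show a shift of the whole mRNA pool. The deposited values still differed in their low range. Their 5th percentile was 7.91 and 8.20 in control, 8.39 and 8.40 after 1 h, 8.01 and 8.07 after 2 h, and 8.00 and 8.01 on the 4 h arrays. Array medians ran from 11.03 to 11.11. The precision is set by the number of arrays, 8 from 7 RNA samples. Of 5814 probe sets, 5498 had 1 gene name in the platform's annotation, 0 had several and 316 had none, and 12 symbols were updated through RefSeq gene IDs. Where a gene had several probe sets (47 genes), the brightest on average stood for it, giving 5449 genes. No genome build is given with the values, so no coordinates were printed, and no sequences were used here.

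The test was limma's moderated fit, version 3.58.1 under R 4.3.3 (lmFit and eBayes, group means only, 3 residual and 3.36 prior degrees of freedom), with the 4 h arrays averaged and that sample assumed to vary like the other groups. P-values were adjusted by Benjamini-Hochberg over all genes within each comparison. The fit was tested on simulated data. The histone genes and gene lists were chosen with earlier results of these data known. All histone genes were named. Of each list, up to 4 genes that passed, by size of change, were named per comparison with control, or the 1 with the widest change where none passed, and of genes like the core histones the 8 with the highest Pearson r. Alternatives were scaling, the filter on dim genes, the prior, array weights, the probe set rule, the samples fitted, the 4 h arrays as samples, a replicate block and leaving out each array.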

Additional observations from a re-analysis of the deposited data

Results flagged for a closer look

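The change of HHO1 against control differed between 4 h and 1 h. The difference, 4 h minus 1 h, was -0.76 on the log2 scale (SE 0.10, adjusted p = 0.0135), with 11.49 in the 4 h sample and 12.25 at 1 h, and both arrays of the 4 h sample lay below both 1 h samples. Of all genes, 38.3% lay below both 1 h samples at 4 h. The 4 h value comes from 1 RNA sample, and the call was lost without either 2 h replicate.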

How the results depend on the processing

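The number of histone genes that passed moved by single genes. At 1 h against control it was 0, and 1 (HTB1, higher) after median centring, with a trended prior and with the 4 h arrays as separate samples. At 4 h against control it was 1, and 0 after median centring, after quantile normalisation and with only the groups compared, and 2 with the 4 h arrays as separate samples, and it ranged from 0 to 1 with an array left out. Between 4 h and 2 h it was 0, and 1 over genes above the 25th percentile, with a trended prior, with array weights, with the 4 h arrays as separate samples and with only the groups compared. Between 4 h and 1 h it was 1, and 2 with a trended prior, 3 with the 4 h arrays as separate samples and 0 to 1 with an array left out. The F test passed 1, and 2 with a trended prior and with the 4 h arrays as separate samples, and 0 to 1 with an array left out. At 2 h against control and at 2 h against 1 h it was 0 under every alternative run. Entering the technical arrays as samples counts 1 RNA sample as 2. Counts over all genes moved too. At 1 h against control, 189 were higher, 246 after median centring, 264 with a trended prior and 456 with separate 4 h arrays. At 4 h against control, 203 were lower, 139 after median centring, 134 after quantile normalisation and 660 with separate 4 h arrays. At 4 h against 1 h, 465 were lower, 599 with a trended prior and 1116 with separate 4 h arrays. At 4 h against 2 h, 42 were lower and 303 with separate 4 h arrays.

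The replicate numbers share only a number: differences between replicates 2 and 1 correlated over genes at 0.10 between control and 1 h, 0.19 between control and 2 h and 0.03 between 1 h and 2 h. With a replicate block over control, 1 h and 2 h, 0 histone genes passed at 1 h, 0 at 2 h and 0 at 2 h against 1 h, while over all genes 340 were higher and 154 lower at 1 h, against 189 and 83 without it, and 0 passed at 2 h, against 6. No histone change that passed turned its sign. Of the list counts recomputed, 137 moved, either to or from 0 or by over 1.5 times, and 529 did not. The cause was not tested.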

Other observations

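The 2 technical arrays of the 4 h sample differed by 0.003 (HTZ1) to 0.11 (HHT2) on the log2 scale over the histone genes, with a median of 0.03, beside 0.05 over all genes. The HHT2 arrays at 4 h, 13.09 and 13.20, lay on either side of control replicate 1, 13.15. The difference between the changes of the shared-type and unshared HTA2 probe sets came to -0.12 and -0.25 after 1 h, to 0.09 and 0.03 after 2 h and to 0.15 after 4 h.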
